A study of Mus musculus with 33 samples.

Results

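Hlf, Mecom, Prdm16, Meis1, Gata2, Tal1, Lmo2, Erg and Gfi1b encode transcription factors, or partners of them, that are known for the formation or upkeep of hematopoietic stem cells (HSCs). These 9 genes were taken by symbol from the 55376 gene symbols counted in every library. All 9 were measured in all 33 libraries and passed the filter on low counts in each of the comparisons made here. Total RNA, polyadenylated or not, was sequenced from cells sorted from the bone marrow of C57BL/6 male mice aged 24 to 29 months. Control mice are called O-WT, and mice that drank water with nicotinamide riboside (NR), a precursor of NAD+, for 4 to 6 weeks are called O-NR. Mice that had NR and then 2 months without it are called O-NR-RC. The 24 libraries of cohort 2 come from HSCs, from common lymphoid progenitors (CLPs), which lead to B and T cells, and from granulocyte-monocyte progenitors, or GMPs. For every one of these cell types there are 4 O-WT and 4 O-NR libraries. Cohort 1 is made up of HSCs alone, namely 2 O-WT libraries, 4 O-NR libraries and 3 from O-NR-RC mice. No young mice were part of these groups, so every comparison is within old age. Within a cell type libraries are treated as separate mice, although the labels leave this unsaid, and by the deposited names the 3 cell types of a treatment come from the same 4 mice. The p-values measure only the spread between these libraries.

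HSCs renew themselves and give rise to all blood lineages, and both properties depend on transcription factors that bind together at shared enhancers. Gata2, Tal1, Lmo2 and Erg belong to a group of factors, with Runx1, Fli1 and Lyl1, that occupy many of the same regulatory elements in stem and progenitor cells. Tal1, a basic helix-loop-helix factor, and Gata2, a zinc finger factor, are bridged by Lmo2, which binds no DNA itself. Meis1 is a homeodomain protein that acts with Pbx and Hox proteins, Hlf is a PAR bZIP factor, and Mecom and Prdm16 are related zinc finger proteins with a PR domain. Gfi1b is a repressor of the growth factor independence family with a known role in erythroid cells, platelets and HSC dormancy.

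The sorted populations carried the transcripts that define them. HSCs were sorted as lineage-negative cells positive for c-Kit, Sca1 and CD150 and negative for CD34 and Flk2, and CLPs by IL-7Rα and Flk2, so the transcripts of those proteins are not independent of the sort. All 9 HSC markers were higher in O-WT HSCs than in CLPs and than in GMPs. Tested within 1 cell type, 8 of them passed the filter on low counts in CLPs and 5 in GMPs. Those that did not, Procr among them, could hardly be called the other way. Procr, a surface receptor outside the gate, averaged 79.6 ± 14.01 CPM (SD, n = 4) in O-WT HSCs, against 2.67 ± 0.36 CPM for CLPs and 1.62 ± 0.41 CPM for GMPs. The recombinase gene Rag1 had 450.9 ± 139.5 CPM in CLPs against 5.32 ± 1.69 in HSCs, and Mpo, of neutrophil granules, had 18365 ± 2561 CPM in GMPs against 3.80 ± 1.17 in HSCs (SD, n = 4). CPM are counts per 1000000 counted reads, scaled between the libraries of a cohort with edgeR's TMM method. Counted reads ran from 4792380 to 18213674 per library in cohort 2 and from 8897256 to 23816042 in cohort 1. Summed CPM by library total on 1736 olfactory and vomeronasal receptor genes, whose products act in sensory neurons, ran from 832 to 8004 in cohort 2 and from 4281 to 14712 in cohort 1. The TMM factors ran from 0.674 to 1.58 and from 0.671 to 1.32 in these cohorts.

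The 9 genes lie on 6 chromosomes of mm10. Hlf (ENSMUSG00000003949.16) is at chr11:90336536-90390895 on the minus strand, Meis1 (ENSMUSG00000020160.18) at chr11:18879817-19018985 on the minus strand and Mecom (ENSMUSG00000027684.16) at chr3:29951296-30548008 on the minus strand. Prdm16 (ENSMUSG00000039410.16) is at chr4:154316125-154636873 on the minus strand and Tal1 (ENSMUSG00000028717.12) at chr4:115056426-115071755 on the plus strand. Gata2 (ENSMUSG00000015053.14) is at chr6:88193891-88207032 and Lmo2 (ENSMUSG00000032698.15) at chr2:103957986-103981878, both on the plus strand. Erg (ENSMUSG00000040732.20) is at chr16:95359169-95586593 and Gfi1b (ENSMUSG00000026815.14) at chr2:28609450-28621982, both on the minus strand. Of the exonic bases of Meis1, 18.28% are shared with Gm37818 on the same strand or Gm16140 on the other, so its counts are less certain. Mecom shares 81 exonic bases with the antisense gene Mecomos and Prdm16 shares 109 with B230104I21Rik.

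Because the members were all higher in HSCs, the 250 bases before their start sites were searched on both strands for 6 short motifs known for the factor families of the group. RefSeq windows (GRCm38.p6) matched 8 of the 9 members by symbol, with 13 windows in all. The windows of Hlf, Tal1 and Erg are shown because they hold a match and lie outside annotated exons, with the matches in capitals and each read 5′ to 3′ on the gene's strand. They are chr11:90390918-90391167 (minus), chr4:115056176-115056425 (plus) and chr16:95459349-95459598 (minus).
Hlf: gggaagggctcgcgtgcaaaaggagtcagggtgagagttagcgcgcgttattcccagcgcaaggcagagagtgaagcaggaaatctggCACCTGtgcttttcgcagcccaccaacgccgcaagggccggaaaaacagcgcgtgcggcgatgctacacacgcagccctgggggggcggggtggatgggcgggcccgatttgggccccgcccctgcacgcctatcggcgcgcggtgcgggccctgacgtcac
Tal1: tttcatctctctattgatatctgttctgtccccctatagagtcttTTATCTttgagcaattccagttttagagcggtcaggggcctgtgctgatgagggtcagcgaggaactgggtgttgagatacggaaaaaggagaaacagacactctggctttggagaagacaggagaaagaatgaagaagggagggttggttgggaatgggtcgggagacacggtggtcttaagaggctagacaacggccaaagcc
Erg: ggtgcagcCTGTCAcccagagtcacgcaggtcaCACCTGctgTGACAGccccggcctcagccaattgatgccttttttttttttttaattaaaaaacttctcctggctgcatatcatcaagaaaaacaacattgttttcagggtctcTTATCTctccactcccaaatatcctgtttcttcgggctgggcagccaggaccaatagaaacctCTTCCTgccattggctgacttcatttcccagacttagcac
The Hlf window holds 1 match to CAGNTG, a letter pattern bound by basic helix-loop-helix factors, 162 bases before the start. The Tal1 window holds 1 match to the GATA factor pattern AGATAA, 205 bases before the start. The Erg window holds 1 match each to the GATA, helix-loop-helix and ETS patterns, the last of which was searched as AGGAAG, and 2 matches to the MEIS pattern TGACAG. Over the 13 windows the GATA pattern was found in 2, the helix-loop-helix pattern in 3, the ETS pattern in 1, the MEIS pattern in 2, the RUNX pattern TGTGGT in 1 and the PAR bZIP pattern TTACNTAA in 0. Of all 32851 windows, 9.99% hold the GATA pattern, 44.8% the helix-loop-helix, 29.5% the ETS, 15.9% the MEIS, 14% the RUNX and 2.06% the PAR bZIP pattern. A match is a description of letters, and no binding was measured.

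To see how far each factor separates the stem cell from its lymphoid and myeloid progeny, HSCs were compared with CLPs and with GMPs in O-WT mice. HSCs had more of all 9 members than CLPs, and more of all 9 than GMPs. The test was edgeR's quasi-likelihood test at a Benjamini-Hochberg adjusted p below 0.05, with 4 libraries per cell type. Of all 20044 genes tested, 19.9% were higher in HSCs than in CLPs and 21.5% were higher than in GMPs by the same rule. The median log2 fold change of the members was 3.05 against CLPs and 3.02 against GMPs, beside medians over all genes tested of -0.08 and 0.31. In each treatment the lowest HSC library lay above the highest CLP and the highest GMP library for every member. The share of all genes separated in this way was not counted. Among the members the nearest approach was that of Erg in O-NR mice, at 169 CPM in HSCs and 139 CPM in CLPs. In the plot of CPM by cell type the HSC points stand above the others in every panel.

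**Figure D1:**
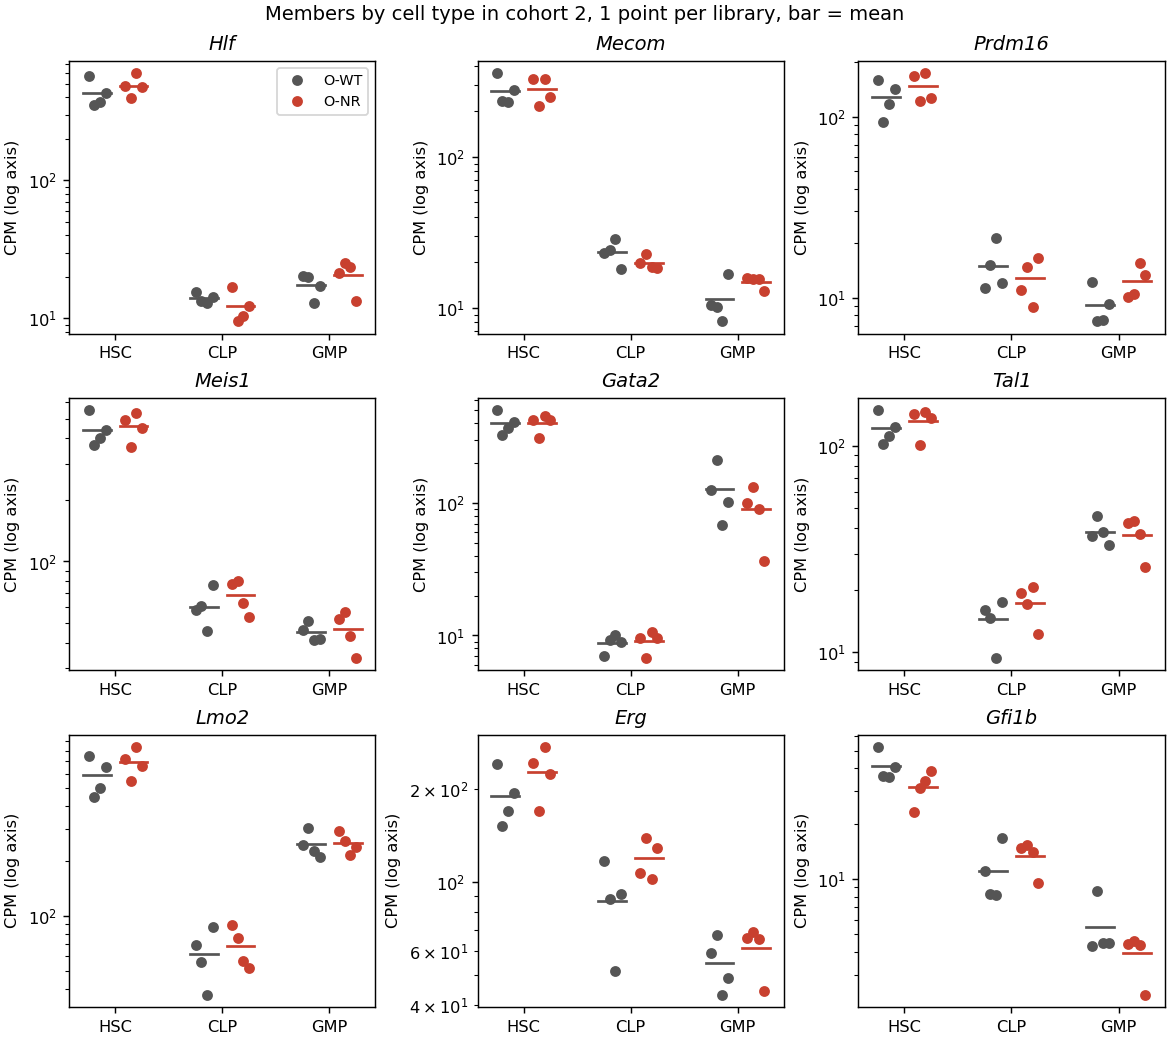
CPM (TMM scaled, log axis) of the 9 members in the 24 libraries of cohort 2, with 1 point per library, O-WT in grey and O-NR in red, and a bar at each group's mean. The 8 HSC libraries lie above all CLP and GMP libraries in every panel, and Gata2, Tal1 and Lmo2 are the members whose GMP points lie well above their CLP points.

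Hlf, which is known as a marker of the most immature HSCs, had 568, 354, 370 and 429 CPM in the 4 O-WT HSC libraries. It had 15.4, 13.3, 12.9 and 14.3 CPM in CLPs and 20.2, 19.8, 12.97 and 17.2 CPM in GMPs. The HSC libraries stood far above both progenitors, and the progenitors overlapped each other. The difference was 4.89 ± 0.21 on the log2 scale (SE) against CLPs (29.7-fold, adjusted p = 1.3e-15) and 4.71 ± 0.21 against GMPs (26.2-fold, adjusted p = 4.1e-16). Mecom, a regulator of HSC number and self-renewal, had 356, 234, 230 and 279 CPM in O-WT HSCs. It was 11.3-fold higher in HSCs than in CLPs (adjusted p = 1e-12) and 25.7-fold higher than in GMPs (adjusted p = 7.2e-15). Prdm16, its relative, followed the same order with 8.31-fold and 15.1-fold. Meis1, the partner of Pbx and Hox proteins, was 7.11-fold higher in HSCs than in CLPs and 10.5-fold higher than in GMPs.

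Gata2, required for the emergence and survival of HSCs and also active in mast cells and basophils, gave the widest gap to CLPs and one of the narrower gaps to GMPs. The O-WT HSC libraries had 502, 325, 370 and 409 CPM, the CLP libraries 7.01, 9.20, 10.1 and 8.90 CPM and the GMP libraries 126, 212, 68.1 and 101 CPM. The 3 cell types did not overlap, with GMPs in between. Gata2 was 44.2-fold higher in HSCs than in CLPs (adjusted p = 1.6e-14) and 3.43-fold higher than in GMPs (adjusted p = 3.5e-07). Tal1 and Lmo2, which are needed for the first blood cells and stay active in the erythroid and megakaryocyte lineages, shared this order. Tal1 was 8.12-fold higher in HSCs than in CLPs and 3.40-fold higher than in GMPs, and Lmo2 was 9.19-fold and 2.57-fold higher.

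Erg and Gfi1b had the smallest gaps to CLPs. Erg, an ETS factor of HSCs and endothelium, was 2.11-fold higher in HSCs than in CLPs (adjusted p = 8.1e-05) and 3.71-fold higher than in GMPs (adjusted p = 9.4e-09). Its O-WT libraries had 240, 152, 169 and 194 CPM in HSCs, 117, 88.3, 51.7 and 91.6 CPM in CLPs and 59.0, 67.3, 43.3 and 49.1 CPM in GMPs, so that CLPs and GMPs overlapped. Gfi1b was 3.59-fold higher in HSCs than in CLPs (adjusted p = 8.8e-08) and 8.14-fold higher than in GMPs (adjusted p = 1.4e-11). In bulk samples, fewer cells that carry a transcript and less of it per cell cannot be told apart.

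O-NR mice gave the same picture in libraries of other animals. All 9 members were again higher in HSCs than in CLPs and than in GMPs, where 22.6% and 22% of 18080 genes were higher by the same rule. Against CLPs the log2 differences ran from 0.81 ± 0.15 for Erg to 5.34 ± 0.28 for Gata2, and against GMPs from 1.51 ± 0.16 for Lmo2 to 4.59 ± 0.20 for Hlf (SE). Whether these differences themselves changed with NR is given with the NR comparisons.

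**Figure D2:**
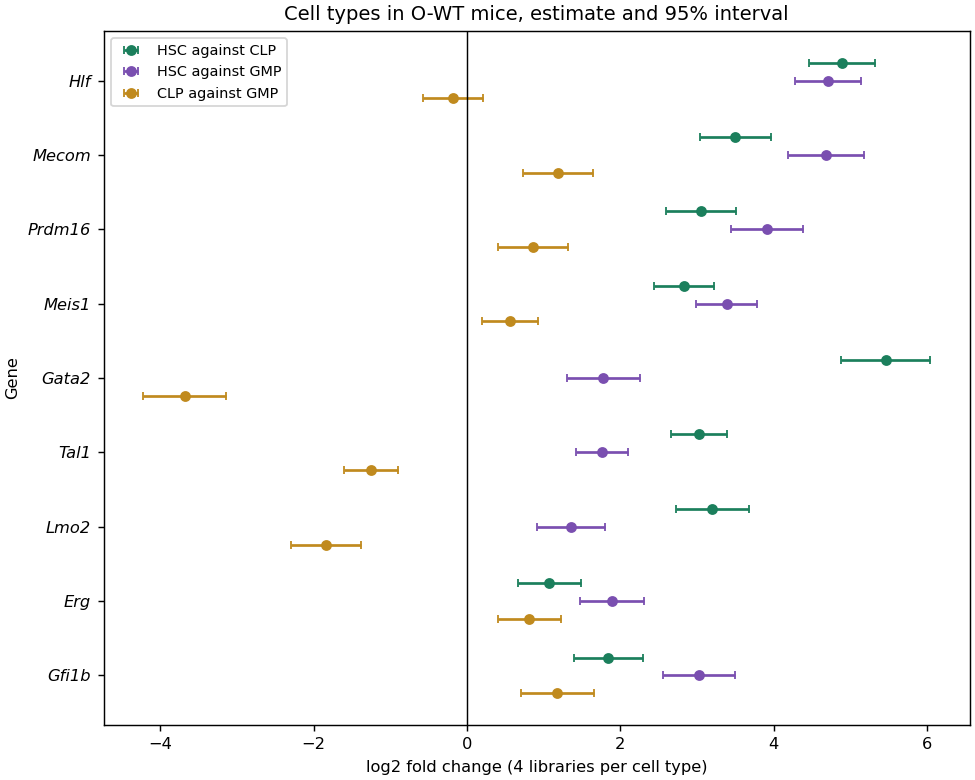
Log2 fold change (x axis) of each member (y axis) between cell types of O-WT mice, with points at the estimate and bars for the 95% interval, 4 libraries per cell type. All HSC estimates lie right of 0, while CLP against GMP runs from -3.69 for Gata2 to 1.18 for Mecom.

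The progenitors were then compared with each other, to see which members stay on in one lineage. In O-WT mice 5 members were higher in CLPs than in GMPs and 3 were lower, where 32.2% of all genes were higher and 28.6% were lower. Mecom (1.18 ± 0.22), Gfi1b (1.18 ± 0.23), Prdm16 (0.86 ± 0.22), Erg (0.81 ± 0.20) and Meis1 (0.56 ± 0.18) were the higher ones, as log2 differences with SE. Taken over the receptor genes of the same libraries, as given below, these 5 overlapped between CLPs and GMPs. Gata2 was 12.9-fold, Lmo2 3.58-fold and Tal1 2.39-fold lower in CLPs than in GMPs. Hlf differed by -0.18 ± 0.19 and did not pass the test (adjusted p = 0.41). In O-NR mice Gata2, Lmo2 and Tal1 were again lower in CLPs, and Hlf was lower too (-0.60 ± 0.19, adjusted p = 0.013). Erg, Gfi1b, Meis1 and Mecom were higher there, and Prdm16 did not pass the test (0.22 ± 0.19, adjusted p = 0.32), against 23.9% of genes higher and 26.1% lower. The scaling bears on the members with small differences, since TMM over genes above 50 CPM moved the median of all genes in this comparison by 0.67 in O-WT mice and turned Hlf to 0.45 (adjusted p = 0.012).

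Levels between genes were compared per kilobase of merged exons (RPKM, from the TMM-scaled CPM). In O-WT HSCs of cohort 2, Lmo2 stood first with 271 ± 64.4 RPKM (SD, n = 4). Gata2 (74.4 ± 13.9), Hlf (64.4 ± 14.6), Erg (54.5 ± 11.03) and Meis1 (41.8 ± 7.43) followed, and the SD ranges of neighbours in this order overlapped. Tal1 (27.7 ± 4.63), Gfi1b (22.6 ± 4.22) and Mecom (22.1 ± 4.72) also could not be ordered beyond their spread, and Prdm16 was lowest with 13.8 ± 3.15 RPKM. In GMPs Lmo2 kept 113 ± 18.2 RPKM and Gata2 23.5 ± 11.4, while Prdm16 and Mecom had 0.9749 ± 0.2413 and 0.913 ± 0.294.

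Low values were read against the receptor genes, whose level per kilobase was taken in the same libraries. In O-WT CLPs Hlf stood at 3.91 times, Mecom at 3.34 times, Gata2 at 2.93 times and Prdm16 at 2.77 times the receptor level. In O-WT GMPs Prdm16 stood at 3.30 times and Mecom at 3.01 times that level, against 36.6 and 58.4 times in O-WT HSCs. How much of the members' count in the progenitors comes from their own transcripts was not tested.

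Gata2 varied most among GMP libraries, and its level followed markers of mast cells and basophils, a relation examined after the values had been seen. The O-NR GMP libraries had 99.3, 132, 90.1 and 36.4 CPM of Gata2, and the summed CPM of Cpa3, Ms4a2, Fcer1a, Mcpt8 and Prss34 in the same libraries were 414, 545, 397 and 145. In O-WT GMPs Gata2 had 126, 212, 68.1 and 101 CPM beside marker sums of 547, 849, 244 and 415. The library with most Gata2 in each treatment was the one with the highest marker sum, and that with least had the lowest. Over the 8 GMP libraries Pearson's r was 0.994 (two-sided exact permutation test, p = 7.4e-05, adjusted p = 0.00067 over the 9 members) and Spearman's rho was 0.976 (exact permutation p = 0.0004, adjusted p = 0.0036). Without the 2 libraries farthest from the median marker sum r was 0.985. The marker list and the cell type were picked from these same data, so the p-values here and below do not account for that choice. Gata2 was not set against the marker sums of other cell types, and no r of other genes with this sum is given. Each treatment has only 4 GMP libraries, so no r is given within a treatment. The marker sum was 144.5 to 848.8 CPM in GMPs against 4.62 to 8.83 CPM in HSCs of cohort 2, and all 5 markers were lower in HSCs than in GMPs. Gfi1b gave an r of 0.892 with the same markers (exact permutation p = 0.0078, adjusted p = 0.035), which rested on 2 libraries, since r without them was 0.114. Tal1 (0.760, exact permutation p = 0.032), Erg (0.730, p = 0.030) and Meis1 (0.716, p = 0.044) also had r above 0 with the marker sum, with adjusted p from 0.073 to 0.079. Without the same 2 libraries r was 0.207 for Tal1, 0.669 for Erg and 0.625 for Meis1. Spearman's rho was 0.524 for Tal1, 0.667 for Erg, 0.690 for Meis1 and 0.571 for Gfi1b (exact permutation p = 0.197, 0.083, 0.069 and 0.151). Lmo2 (0.613, exact permutation p = 0.104) and Hlf (0.570, p = 0.138) had r above 0 too, while Mecom (-0.091) and Prdm16 (-0.353) had r below 0. The differences between the members' r were not tested.

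**Figure D3:**
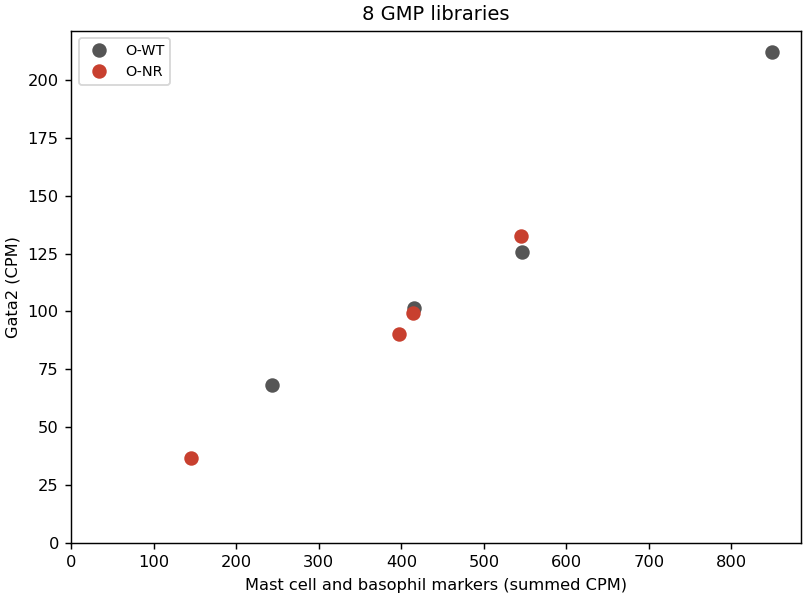
Gata2 (CPM, y axis) against the summed CPM of 5 mast cell and basophil markers (x axis) in the 8 GMP libraries, O-WT in grey and O-NR in red. The points lie along 1 line from 36.4 CPM of Gata2 at a sum of 145 to 212 CPM at a sum of 849.

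The factors with which the members work were counted from lists chosen by their known roles. Of the other 3 factors of the shared-enhancer group, 3 were higher in O-WT HSCs than in CLPs and 1 was higher than in GMPs. Fli1, an ETS relative of Erg, was higher in HSCs against both, by 1.81 ± 0.19 and 0.56 ± 0.18 on the log2 scale, and Lyl1, a relative of Tal1, was higher by 0.70 ± 0.20 against CLPs. Of 17 partners in complexes, 8 were higher and 2 lower in HSCs than in CLPs, and 8 were higher and 6 lower than in GMPs. Over all genes 10.4% were lower in HSCs than in CLPs and 22.6% were lower than in GMPs. Pbx3, a homeodomain protein, was higher in HSCs by 2.24 ± 0.23 and 2.01 ± 0.22. Tcf3, an E protein that pairs with Tal1, was lower in HSCs by both comparisons (-0.80 ± 0.18 in each), as were Tcf4 against CLPs (-0.49 ± 0.17) and the deacetylase gene Hdac2 against GMPs (-0.87 ± 0.18).

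Paralogs of the members showed no common direction. Of the 12 tested, 3 were higher and 1 lower in HSCs than in CLPs, and 4 were higher and 6 lower than in GMPs. Gata3 (1.88 ± 0.22 and 3.53 ± 0.24) and Meis3 (1.46 ± 0.32 and 3.38 ± 0.36) were higher in HSCs in both, Pknox1 was lower against CLPs (-0.61 ± 0.17), and Gfi1 (-2.46 ± 0.16) and Lmo4 (-2.02 ± 0.20) were lower against GMPs. Gfi1b and its paralog Gfi1, known for granulocyte development, thus differed in direction between HSCs and GMPs. Of 12 other regulators of HSCs, 10 were higher and 0 lower against CLPs, with Nkx2-3 (4.72 ± 0.25) and Mycn (4.53 ± 0.26) first, and 9 were higher and 1, Myb (-1.39 ± 0.23), lower against GMPs. Of 11 lineage factors tested, 7 were lower and 1, Gfi1 (0.44 ± 0.16), higher in HSCs than in CLPs, and 8 were lower than in GMPs. The leading ones were Irf8 (-4.61 ± 0.23) and the B cell factor Ebf1 (-4.86 ± 0.27) against CLPs, and the myeloid factor Cebpa (-6.76 ± 0.25) and Irf8 (-4.86 ± 0.24) against GMPs. Tested within 1 cell type, 8 of the 12 other regulators passed the filter on low counts in CLPs and 6 in GMPs. Of the lineage factors 8 passed in HSCs. Nkx2-3, which passed in neither progenitor, and Cebpa, which did not pass in HSCs, could hardly be called the other way. The medians of these lists against CLPs were 0.70 for the enhancer group, 0.43 for complex partners, 0.22 for paralogs, 2.53 for other regulators and -1.61 for lineage factors, beside -0.08 over all genes. Against GMPs they were 0.01, 0.34, -0.19, 3.66 and -1.08, beside 0.31.

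The genes most like each member over the 24 libraries of cohort 2 were found among 22573 genes by Pearson's r of log2 CPM, as a description, since these libraries hold 3 cell types that differ in most of these genes. Hlf was close to Ltbp3 (r = 0.991), Mecom was nearest to Dst (0.993) and Tgm2 (0.991), and Prdm16 to Clec1a (0.989) and Trpc6 (0.988). Meis1 was nearest to Uba7 (0.992) and Zbtb4 (0.990), Erg to Msi2 (0.980) and Mfng (0.969), and Gfi1b to Ctla2a (0.962) and Calcoco1 (0.961). Gata2 was nearest to Pafah2 (0.985) and Muc13 (0.984), Tal1 to Rgs18 (0.983) and Neat1 (0.982), and Lmo2 to Kit (0.991), which encodes the stem cell factor receptor used in the sort, and Diaph1 (0.988). Over the 17 HSC libraries, centred on each cohort, the same pairs had r from 0.906 to 0.990, except those of Gfi1b with Ctla2a (0.485) and Calcoco1 (0.736). Among the members themselves, the 28 pairs without Gfi1b had r from 0.417 to 0.985 over the 24 libraries and from 0.911 to 0.995 over the HSC libraries. The 8 pairs with Gfi1b had r from 0.414 to 0.919 and from 0.582 to 0.739. The libraries share a scaling that moves with the receptor genes, which enters each of these values. Centring on cohort leaves in the separate levels of cohort 1 described below. There the summed CPM of the members was 1114 to 1271 in 4 libraries and 2377 to 3528 in the other 5. No r of unrelated genes over the HSC libraries is given for comparison, so these values do not show a relation particular to the members.

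NR was compared with no NR in each cell type of cohort 2, to see whether the stem cell factors moved. No member passed an unadjusted p below 0.01 in HSCs, CLPs or GMPs (edgeR's quasi-likelihood test, 4 against 4 libraries), where 0.777%, 0.412% and 0.986% of all genes did. Below 0.05 stood 4.06%, 3.21% and 4.83% of all genes. At an unadjusted p below 0.05 there was 1 member in HSCs, 1 in CLPs and 0 in GMPs, and DESeq2's Wald test likewise called 0 below 0.01 and gave 1, 1 and 0 below 0.05. Over all genes, 0 passed an adjusted p below 0.05 in each of the 3 cell types, while 705, 640 and 651 had an unadjusted p below 0.05. A p that misses the threshold does not show that a level stayed the same, and the intervals set how much could have moved.

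Hlf, Mecom, Meis1, Gata2 and Tal1 had estimates close to 0 in HSCs. Gata2 differed by -0.04 (95% interval -0.29 to 0.22), Mecom by -0.01 (-0.27 to 0.26), Meis1 by 0.02 (-0.23 to 0.27), Tal1 by 0.08 (-0.15 to 0.31) and Hlf by 0.14 (-0.13 to 0.41) on the log2 scale. Erg (0.22, -0.03 to 0.48), Lmo2 (0.20, -0.08 to 0.49) and Prdm16 (0.16, -0.10 to 0.42) had somewhat higher estimates. The O-NR HSC libraries had 423, 308, 451 and 424 CPM of Gata2 and 482, 396, 597 and 472 CPM of Hlf, and both ranges overlap those of O-WT HSCs.

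Gfi1b came nearest to the threshold in HSCs. It had 52.4, 36.3, 35.8 and 40.6 CPM in O-WT HSCs and 23.2, 31.4, 34.2 and 38.7 CPM in O-NR HSCs. The groups overlap at their edges, with O-NR replicate 1 lowest and O-WT replicate 1 highest. The log2 difference was -0.40 ± 0.15 (SE), with an interval of -0.71 to -0.09 (unadjusted p = 0.016, adjusted p = 0.99, 17364 genes tested). Scaled by library total alone, O-WT ran from 41.0 to 47.6 CPM and O-NR from 22.6 to 40.0 CPM, without overlap, and the difference was -0.44 with an unadjusted p of 0.0096, past the threshold. It was also past it without O-NR replicate 2 (-0.47, unadjusted p = 0.00906, adjusted p = 0.62) or without O-NR replicate 4 (-0.52, unadjusted p = 0.0043, adjusted p = 1) in the quasi-likelihood test, and by library total the adjusted p was 0.88. Without O-NR replicate 1, the lowest library, the difference was -0.25 (unadjusted p = 0.058, adjusted p = 1). Gfi1, the paralog, passed in the same direction (-0.55 ± 0.18, unadjusted p = 0.0068, adjusted p = 0.99), the only gene of the 5 lists that did besides its second entry among the lineage factors. The sum of 5 B and plasma cell markers ran from 42.6 to 719 CPM in O-WT HSCs and from 11.9 to 123 CPM in O-NR HSCs, and its part in these values was not tested.

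In CLPs Erg had the lowest p of the members. It had 117, 88.3, 51.7 and 91.6 CPM in O-WT and 106, 139, 102 and 129 CPM in O-NR CLPs. The ranges overlap and O-WT replicate 3, the library with the fewest counted reads of the series, was lowest. This library also had the most receptor counts (8004 CPM) and the highest TMM factor (1.58) of cohort 2. The difference was 0.43 ± 0.21 on the log2 scale (interval 0.01 to 0.86, unadjusted p = 0.047, adjusted p = 1). Without O-WT replicate 3 it was 0.27 (unadjusted p = 0.082, adjusted p = 1), and over the 8 libraries left out in turn the unadjusted p ran from 0.012 to 0.11. In GMPs the estimates ran from -0.44 ± 0.31 for Gata2 to 0.47 ± 0.23 for Prdm16. Prdm16 had 12.2, 7.41, 7.47 and 9.25 CPM in O-WT and 10.1, 10.5, 15.5 and 13.3 CPM in O-NR GMPs (unadjusted p = 0.058). Without O-WT replicate 4, Mecom in GMPs passed (0.72, unadjusted p = 0.00046, adjusted p = 0.51). Without O-NR replicate 4, Hlf (0.45, unadjusted p = 0.0086, adjusted p = 0.43) and Erg (0.33, unadjusted p = 0.0057, adjusted p = 0.38) did. Cbfa2t3, a corepressor that joins the complex of Tal1 and Lmo2, was lower in O-NR GMPs (-0.46 ± 0.09, unadjusted p = 0.0002, adjusted p = 0.42). It was the only gene of the 5 lists called in GMPs, and none was called in CLPs.

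**Figure D4:**
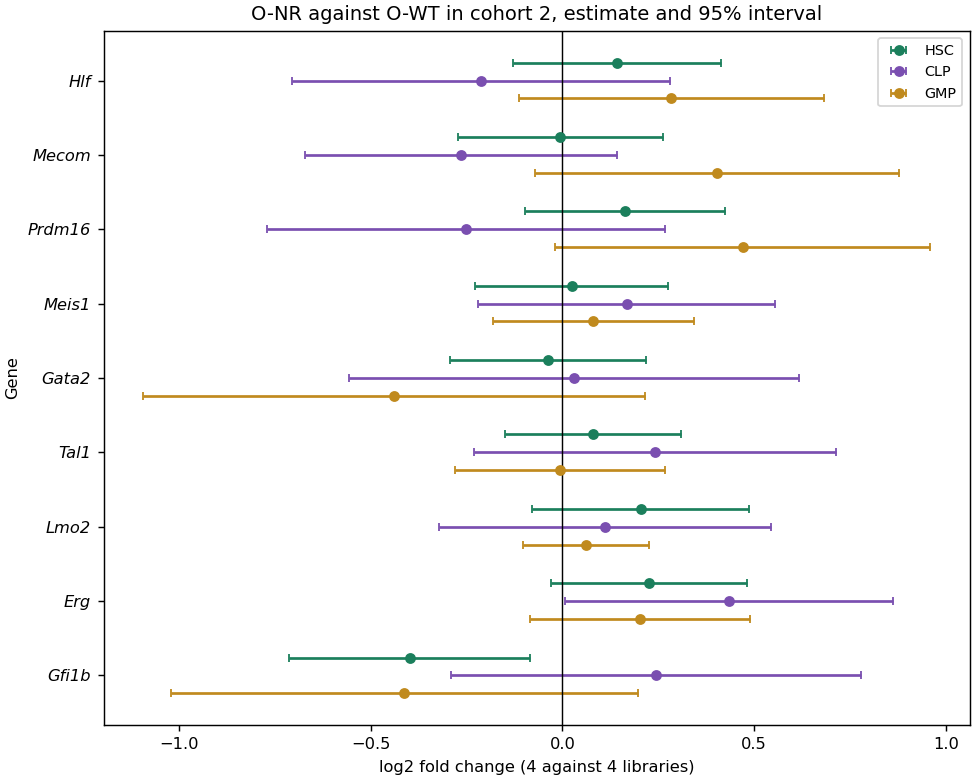
Log2 fold change (x axis) of O-NR against O-WT for each member (y axis) in HSCs, CLPs and GMPs of cohort 2, with points at the estimate and bars for the 95% interval, 4 against 4 libraries. The intervals cross 0 except for Gfi1b in HSCs (-0.71 to -0.09) and Erg in CLPs (0.01 to 0.86).

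The difference in the NR effect between cell types was tested over all 24 libraries, and 0 members passed an unadjusted p below 0.01 or below 0.05 in any of the 3 contrasts (edgeR's quasi-likelihood test). Over all genes 0.403% passed below 0.01 for HSCs against CLPs, 0.146% for HSCs against GMPs and 0.403% for CLPs against GMPs, and below 0.05 they were 2.3%, 1.41% and 2.9%. DESeq2's Wald test called 0 members in each and gave 1 below 0.05 for CLPs against GMPs. The lowest p belonged to Gfi1b, whose NR effect in CLPs exceeded that in GMPs by 0.72 ± 0.36 (unadjusted p = 0.051, adjusted p = 0.99). The difference of its effect in HSCs from that in CLPs was -0.65 ± 0.33 (unadjusted p = 0.057, adjusted p = 1). Without O-WT CLP replicate 4 both were past the threshold, at 0.95 (unadjusted p = 0.0073, adjusted p = 0.83) and -0.90 (unadjusted p = 0.0061, adjusted p = 1).

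Cohort 1 asks whether HSC levels differed after NR and after its withdrawal, and its libraries fell into separate levels that cut across the groups. O-NR replicates 1 and 2 and O-NR-RC replicates 2 and 3 had 13739 to 14712 CPM on the receptor genes, and the other 5 libraries had 4281 to 8731. Every member was lower in those 4 libraries than in the other 5, and by library total alone this held for every member but Gfi1b. The share of all genes that split in the same way was not counted, so this is no trait particular to the members. The TMM factors were 1.23 to 1.32 in the 4 libraries against 0.671 to 0.969 in the other 5. Hlf, for instance, had 339 and 348 CPM in O-WT, 183, 190, 475 and 618 CPM in O-NR and 461, 162 and 201 CPM in O-NR-RC HSCs. Gata2 had 468 and 372 CPM in O-WT, 164, 178, 443 and 451 CPM in O-NR and 692, 163 and 177 CPM in O-NR-RC HSCs. For Hlf, O-NR as well as O-NR-RC thus had libraries above and below both O-WT libraries. The summed CPM of the HSC markers moved likewise, from 709 to 803 in the 4 libraries against 1327 to 1996 in the 5, and the part of the receptor counts in the members' levels was not tested.

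**Figure D5:**
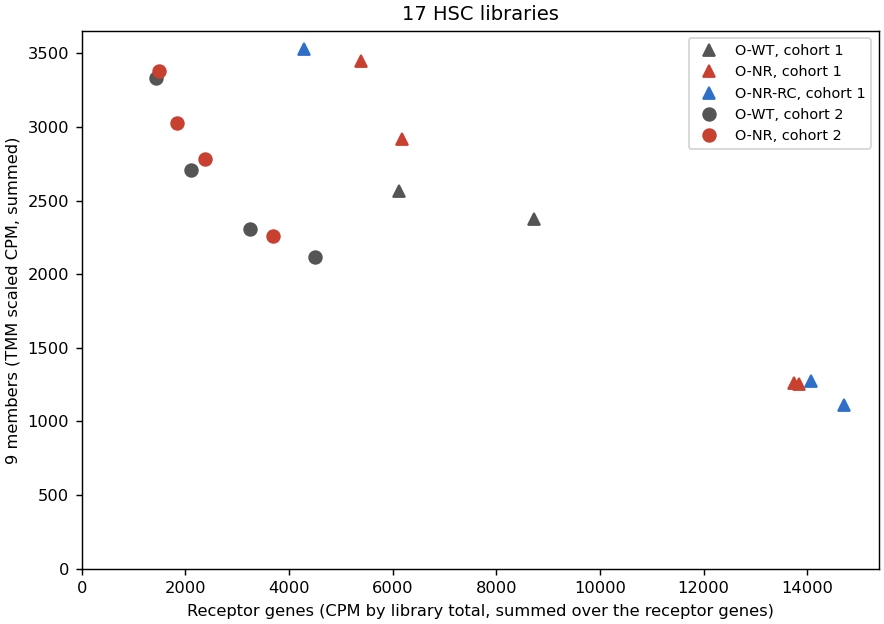
Summed CPM (TMM scaled) of the 9 members (y axis) against the summed CPM by library total of 1736 receptor genes (x axis) in the 17 HSC libraries, circles for cohort 2 and triangles for cohort 1, coloured by group. The 4 cohort 1 libraries with 13739 to 14712 receptor CPM have the lowest sums, 1114 to 1271, and the other 5 have 2377 to 3528.

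No member passed an unadjusted p below 0.01 in cohort 1 (edgeR's quasi-likelihood test), nor below 0.05, and DESeq2's Wald test also gave 0 at either level. Of all genes 0.048% passed for O-NR against O-WT, 0.036% for O-NR-RC against O-NR and 0.078% for O-NR-RC against O-WT below 0.01, and 0.546%, 0.291% and 0.795% below 0.05. These 3 comparisons share libraries, so their values stand side by side and are not independent. In the order O-NR against O-WT, O-NR-RC against O-NR, then O-NR-RC against O-WT, Hlf differed by 0.09, -0.42 and -0.32, Gata2 by -0.44, 0.15 and -0.29 and Gfi1b by -0.25, -0.34 and -0.59 on the log2 scale. Over the 9 members the SE lay between 0.41 and 0.77, and the interval for Hlf in O-NR against O-WT ran from -1.36 to 1.55. Without the 4 libraries with most receptor counts, a choice made after seeing the data, there remained 2 O-WT libraries, 2 from O-NR and 1 from O-NR-RC mice. Hlf was then higher in O-NR than in O-WT by 0.62, but the 2 O-NR libraries kept were its highest, at 475 and 618 CPM. Gata2 in O-NR-RC turned to 0.58 above O-WT, which rests on 1 O-NR-RC library, its highest at 692 CPM. The choice of libraries thus set both directions. No p is given, since 1 group holds 1 library.

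With both cohorts in 1 fit (6 O-WT and 8 O-NR HSC libraries, with a cohort term), 0 members passed below 0.01 or below 0.05, beside 0.103% and 0.923% of genes, and DESeq2's Wald test gave 0 at either level. Gfi1b had the lowest p, at -0.32 ± 0.20 (unadjusted p = 0.13, adjusted p = 1). The NR effect differed between cohorts for 0 members below 0.01 or below 0.05, beside 0.228% and 1.91% of genes, and DESeq2's Wald test gave 0 at either level. The differences ran from -0.52 ± 0.46 for Prdm16 to 0.10 ± 0.46 for Gfi1b.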

How the data were processed

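RNA of sorted HSCs, CLPs and GMPs was measured in 33 libraries. The authors trimmed the reads with trim galore 0.4.3 and cutadapt 1.12, aligned them to mm10 with STAR and Gencode M22, and counted reads per gene with featureCounts. The deposited values are whole-number counts for 55376 symbols, not normalized. Strand and multimapping settings are not given in the sources used here, so antisense neighbours cannot be told apart. One label field names the GMPs common myeloid progenitors, and the titles' name was used.

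The members and lists were chosen with earlier results of these data known. Genes were kept that exceeded 3 CPM in 4 or more libraries (cohort 2), 2 or more (cohort 1, and the difference between cohorts) or 6 or more (both cohorts), scaled with TMM and tested with the quasi-likelihood test of edgeR 4.0.16 in R 4.3.3. Cell types were compared within a treatment over 12 libraries, at an adjusted p-value below 0.05. NR comparisons used an unadjusted p below 0.01, which is one of the study's thresholds beside a fold change and an FDR, with cell types fitted singly, cohort 1 as 1 set, and differences in the NR effect over 24 libraries. DESeq2 1.42.0, other scalings, no filter, a 1.5-fold limit, a replicate block and leaving out each library were alternatives. All 9 members are named. From each list the 2 genes per direction with the smallest p are named, and for each member the 2 most correlated genes. One gene that these rules name is not reported here.

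Gene positions are from Gencode M21. Within a treatment the same replicate number marks the same mouse over the 3 cell types by the deposited names. The mean correlation of the deviations of same-numbered libraries ran from -0.19 to 0.27 over these 6 pairs of groups. Scripts were tested on simulated data. Counts carry counting error, and counted reads per library ran from 4792380 to 23816042.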

Additional observations from a re-analysis of the deposited data

Results flagged for a closer look

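Of 63 groups of 4 libraries tested for a member's lowest or highest library standing apart, 4 had one, and chance alone gives about 1 in 20. In O-NR GMPs, replicate 4 had 12.9 CPM of Mecom against 15.4 CPM in the nearest library, a gap that takes 0.903 of the group's range. The same library had 44.4 CPM of Erg, with 65.5 CPM in the nearest library (0.867 of the range), and 2.35 CPM of Gfi1b, with 4.35 CPM in the nearest (0.88 of the range). It also had the lowest mast cell and basophil marker sum of the GMP libraries, 145 CPM, and their lowest sum of megakaryocyte markers such as Pf4 and Vwf, 52.5 CPM. In O-WT GMPs, replicate 2 had 8.55 CPM of Gfi1b against 4.49 CPM in the nearest library (0.963 of the range). It had the highest mast cell and basophil marker sum, 849 CPM. Its megakaryocyte marker sum was 166 CPM, below only the 177 CPM of O-NR replicate 2. Whether the marker cells have a part in these values was not tested. No difference in the NR effect between cell types or cohorts was called for a member.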

How the results depend on the processing

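All 9 members were called higher in HSCs than in CLPs and than in GMPs under every alternative run, in both treatments. Between CLPs and GMPs of O-WT mice 8 members were called, and 5 without the filter, where Meis1, Erg and Prdm16 were lost. Meis1 was also lost with DESeq2's Wald test (0.42) and a 1.5-fold limit. Hlf, not called there at -0.18, turned to 0.45 (TMM over genes above 50 CPM) and 0.46 (with a replicate block as well). In O-NR mice Hlf lost its call with upper quartile scaling (-0.28), library total (-0.33), TMM over genes above 50 CPM (-0.21), and without CLP replicate 2 (-0.43) or GMP replicate 2 (-0.50). Mecom lost it without the filter (0.38) and with the 1.5-fold limit, Meis1 without the filter (0.53), and Prdm16 gained one with upper quartile scaling (0.54), library total (0.48) and TMM over genes above 50 CPM (0.61, and 0.62 with the block), with which Hlf was also lost (-0.19). The replicate block under the usual TMM scaling changed no call of a member between cell types.

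NR called 0 members, and these alternatives called some. In HSCs of cohort 2 the count was 1, Gfi1b, by library total, by the replicate block (-0.42) and by the block with TMM over genes above 50 CPM (-0.48), and 0 to 1 with single libraries left out. O-WT and O-NR libraries share only a number: same-numbered HSC libraries had a mean correlation of 0.136, with -0.27 as the lowest. In GMPs the count was 1 without the filter (Gata2, -0.50) and 0 to 2 with libraries left out. For both cohorts it was 1 with the block (Gfi1b, -0.50). Without the 4 cohort 1 libraries with most receptor counts, Hlf in O-NR was 0.62 above O-WT. Gata2 in O-NR-RC against O-WT went from -0.29 to 0.58. Both directions were set by that choice of libraries. The difference between cohorts went from 0 to 7 with the block and to 2 with the block and TMM over genes above 50 CPM, where 16.3% and 10.7% of 31596 genes were called. That block sets the 2 O-WT libraries of cohort 1 beside O-NR replicates 1 and 2, which are 2 of those 4. The NR effect in CLPs against GMPs gave 1, Mecom, with upper quartile scaling and 1 by library total, and 0 to 2 with libraries left out (Mecom and Gfi1b without CLP O-WT replicate 4). In HSCs against CLPs it gave 0 to 1. Causes were not tested. Of 2097 alternative values for members in NR comparisons, 1858 kept sign and call.

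Over all genes, calls in HSCs of cohort 2 went from 135 to 203 with upper quartile scaling, 283 without the filter, 247 with the block and 262 with the block and TMM over genes above 50 CPM. In CLPs they went from 82 to 336, 185 and 186 under the last 3, and in GMPs from 133 to 366 without the filter. Of cohort 1, 16, 12 and 26 calls became 491, 988 and 2709 without the 4 libraries, and the difference between cohorts went from 72 to 5158 with the block. TMM over genes above 50 CPM moved the median of all genes by 0.67 on the log2 scale for CLPs against GMPs of O-WT mice, and together with the block by 0.93 for the difference between cohorts. The share of higher calls for CLPs against GMPs went from 52.9% to 84.1%. For HSCs against GMPs of O-WT mice that share went from 48.8% to 75.9%, and against CLPs from 65.7% to 48.8% with upper quartile scaling. Without TMM, 17 of 81 mean CPM values of members moved by over 1 SD.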

Other observations

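In O-NR mice, of 12 other regulators of HSCs, 10 were higher and 1 lower in HSCs than in CLPs, and 11 were higher and 1 lower than in GMPs. Of 11 lineage factors tested, 7 were lower and 0 higher in HSCs than in CLPs, and 7 were lower and 0 higher than in GMPs. As given above, some genes of both lists did not pass the filter within the cell types where they are low. Of 17 complex partners, 7 were higher and 2 lower than in CLPs, and 9 were higher and 6 lower than in GMPs. Over all genes, 22.6% were higher in O-NR HSCs than in CLPs, and 40.9% were called in either direction. Against GMPs these shares were 22% and 46.4%. Between CLPs and GMPs of O-WT mice, all 3 enhancer group partners were lower in CLPs, and of the 17 complex partners 3 were higher and 6 lower. There 32.2% of all genes were higher and 28.6% were lower.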
